A study of Mus musculus with 2 samples.

Results

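Oxidative phosphorylation genes were followed in white blood cells of mice that model Alzheimer's disease. A gene was a member if its symbol began with mt-, Nduf, Sdh, Uqcr, Cox4, Cox5, Cox6, Cox7, Cox8 or Atp5 and if it had at least 100 UMIs (unique molecular identifiers, 1 for each captured transcript) over both libraries. Of 32285 genes listed, 111 matched the symbols and 104 were members, 13 encoded by mitochondrial DNA and 91 by the nucleus. The 7 left out were Cox7a1 with 73 UMIs, Cox6a2 with 45, Cox4i2 with 2, Cox8b and Ndufa4l2 with 1 each, and Cox7b2 and Cox8c with 0.

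Oxidative phosphorylation makes ATP at the inner mitochondrial membrane. Complexes I to IV pass electrons from NADH and succinate to oxygen and complexes I, III and IV pump protons, which complex V uses to make ATP. Complex II is encoded wholly by nuclear genes, while the other complexes combine core subunits made inside the mitochondrion with subunits imported from the cytosol, so that transcripts of both genomes are needed. Mature neutrophils, short-lived phagocytes full of granules, are known for few mitochondria and for a reliance on glycolysis, whereas monocytes and lymphocytes respire.

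The groups compared were wild-type (WT) mice on the C57BL/6J background and APP/PS1 transgenic mice, which carry mutant human genes of familial Alzheimer's disease and deposit amyloid in the brain. The neutrophil enrichment was common to both. Each group was 1 library of cells from 3 pooled female mice aged 7 months, taken from peripheral blood enriched for neutrophils with magnetic beads and run on the 10x Genomics platform. Because animals were pooled, there was 1 sample per genotype, no test was possible, and genotype, pool and library cannot be told apart. All intervals below are exact 95% intervals that cover counting error only.

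The WT library held 17123 cells and 92458623 UMIs and the APP/PS1 library 17645 cells and 84870864 UMIs. Cells with at least 1000 UMIs were kept, 16315 from WT and 16760 from APP/PS1, and 77 barcodes occurred in both libraries among them. Marker genes placed 17440 of these 33075 cells (52.7%) in 3 neutrophil classes despite the enrichment, and 3384 cells (10.2%) stayed unnamed. Neutrophil-like cells numbered 5957 in WT and 6872 in APP/PS1, and classical monocyte-like cells 1666 and 1240. The median depth was 2538 and 2644 UMIs per neutrophil-like cell, against 8162 and 7687 per classical monocyte-like cell.

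Transcripts of oxidative phosphorylation were scarce in neutrophil-like cells, and those encoded by mitochondrial DNA were the scarcer. The 13 mitochondrial genes took 0.317% of all UMIs (0.315 to 0.320) in WT neutrophil-like cells and 0.266% (0.264 to 0.268) in APP/PS1. In classical monocyte-like cells they took 2.97% in WT and 2.56% in APP/PS1. The share was thus 9.35-fold lower in neutrophil-like cells in WT and 9.60-fold lower in APP/PS1.

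Nuclear members differed less between these cells. They took 0.842% (0.838 to 0.846) of UMIs in WT neutrophil-like cells and 0.907% (0.903 to 0.911) in APP/PS1, against 2.03% and 1.94% in classical monocyte-like cells. The share was 2.41-fold lower in WT and 2.13-fold lower in APP/PS1. This gap depended on the scale: the log2 ratio of the nuclear sum was -1.18 as a share of UMIs (mean of both libraries), -0.34 relative to the median of all genes and -0.24 under TMM. For each nuclear UMI, neutrophil-like cells had 0.377 mitochondrial UMIs in WT and 0.294 in APP/PS1, whereas classical monocyte-like cells had 1.46 and 1.32. The balance between the genomes was therefore on opposite sides of 1 in the neutrophil-like and the monocyte-like cells of both libraries.

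Per cell, a neutrophil-like cell had on average 10.2 mitochondrial and 27.2 nuclear member UMIs in WT, and 9.24 and 31.5 in APP/PS1. A classical monocyte-like cell had 267 and 183 in WT, and 205 and 155 in APP/PS1. The gap per cell was wider than the gap in shares because monocyte-like cells also held more UMIs in all. After thinning to 1000 UMIs per cell, medians were 3 mitochondrial UMIs in WT and 2 in APP/PS1 neutrophil-like cells, against 29 and 25 in classical monocyte-like cells. No mitochondrial UMI was left in 8.41% and 14.8% of thinned neutrophil-like cells (1.07% and 2.72% before thinning).

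These droplet libraries also hold RNA from other cells, and a measure of it stands beside the levels. The 6 classical monocyte markers summed to 365 CPM (counts scaled to 1000000 UMIs of a class) in WT and 319.5 in APP/PS1 neutrophil-like cells, against 7347 and 7617 in the monocyte-like cells, with none of the markers at 0. Neutrophil-like cells thus held 4.97% and 4.19% of the monocyte level of these markers, 10.7% and 10.4% of the monocyte level of the mitochondrial members, and 41.4% and 46.9% of that of the nuclear members. The part of such RNA in the member levels was not tested.

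Among the other cells, B cell-like cells had the highest mitochondrial share, 5.57% in WT and 5.32% in APP/PS1. T cell-like cells had 3.52% and 3.08%, cells led by the antigen-presentation genes H2-Ab1 and H2-Aa (MHC II-high cells) 2.65% and 2.34%, and NK cell-like cells 2.45% and 2.31%. Nonclassical monocyte-like cells had 2.34% and 2.13% and basophil-like cells 1.87% and 1.65%. These orders were the same in both libraries, and no interval of these 6 classes reached the neutrophil level.

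Nuclear shares spread less among these classes. They ran from 1.28% in basophil-like to 2.03% in classical monocyte-like cells in WT, and from 1.26% to 1.94% in APP/PS1. B cell-like cells, first by the mitochondrial share, had 1.37% in both libraries, below the T cell-like cells at 1.64% and 1.67%. Erythroid cell-like cells, filled with haemoglobin mRNA, had the least of both kinds, with 0.159% and 0.126% mitochondrial and 0.065% and 0.062% nuclear. In each library 1 of them had over 10% mitochondrial UMIs, and without it the mitochondrial share was 0.118% in WT and 0.089% in APP/PS1. Classes other than neutrophils also held neutrophil markers, with 36751 and 13754 CPM in basophil-like and 15556 and 18873 in T cell-like cells. The part of such RNA in their shares was not tested.

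**Figure D1:**
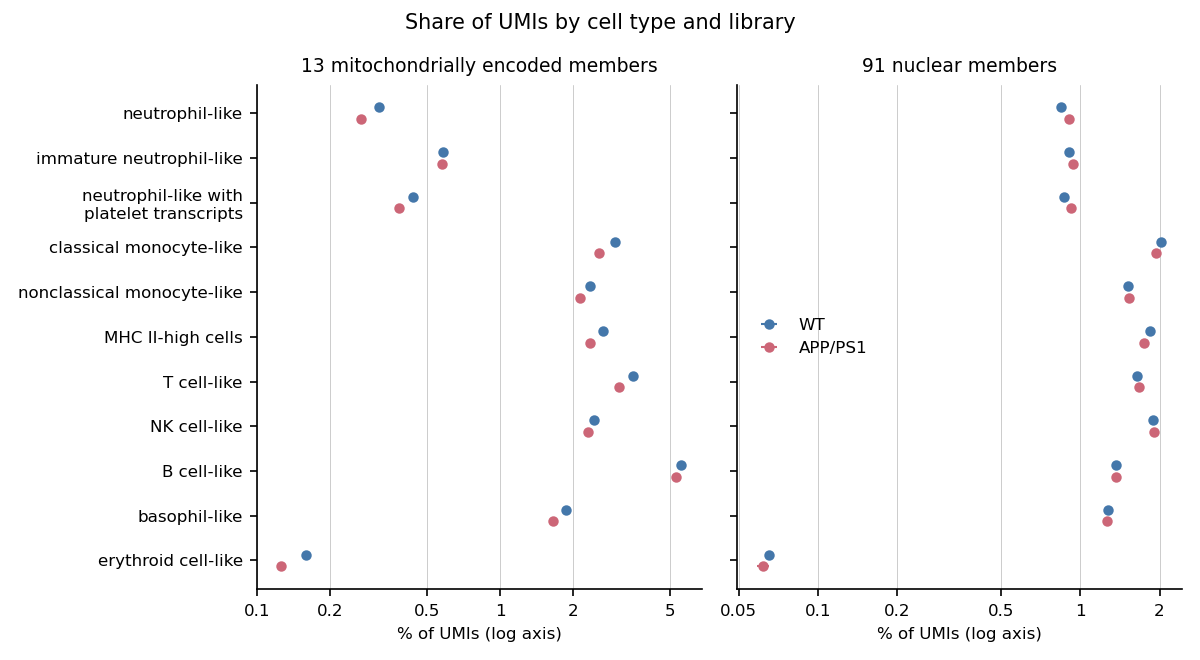
Share of UMIs (%, log axes) taken by the 13 mitochondrially encoded members (left) and the 91 nuclear members (right) in 11 cell classes of the WT and APP/PS1 libraries, with exact 95% Poisson intervals that are mostly narrower than the points. The 3 neutrophil classes lie between 0.266% and 0.583% on the left, below the other white cells, and between 0.842% and 0.934% on the right.

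The immature neutrophil-like cells, named by Camp, Ngp and Ltf of the specific granules, stood between. Only 94 WT and 192 APP/PS1 cells were in this class, with 0.583% and 0.575% mitochondrial and 0.906% and 0.934% nuclear UMIs. Neutrophil-like cells that also carried platelet transcripts (1643 and 2682 cells) had 0.438% and 0.384% mitochondrial and 0.868% and 0.923% nuclear UMIs. The mitochondrial share thus ordered the classes as immature, platelet-carrying and neutrophil-like in both libraries.

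Every mitochondrial gene was lower in neutrophil-like than in classical monocyte-like cells. The log2 CPM ratio was below -1 in both libraries for 13 of 13 mitochondrial and 60 of 91 nuclear members, where 43.7% of the 10012 genes compared were, and below -3 for 11 mitochondrial and 14 nuclear members, where 14.8% were. Above 1 there was no member, where 12.9% of genes were. The median log2 ratio was -3.36 for mitochondrial members, -1.62 for nuclear members and -0.84 for all genes. These ratios depend on the scale: the trimmed mean of M-values (TMM) moved all of them up by 0.94 and put the median of all genes at 0.10. The cause of this shift was not tested. Relative to the median of all genes, the median mitochondrial member lay at -2.52 and the median nuclear member at -0.78.

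**Figure D2:**
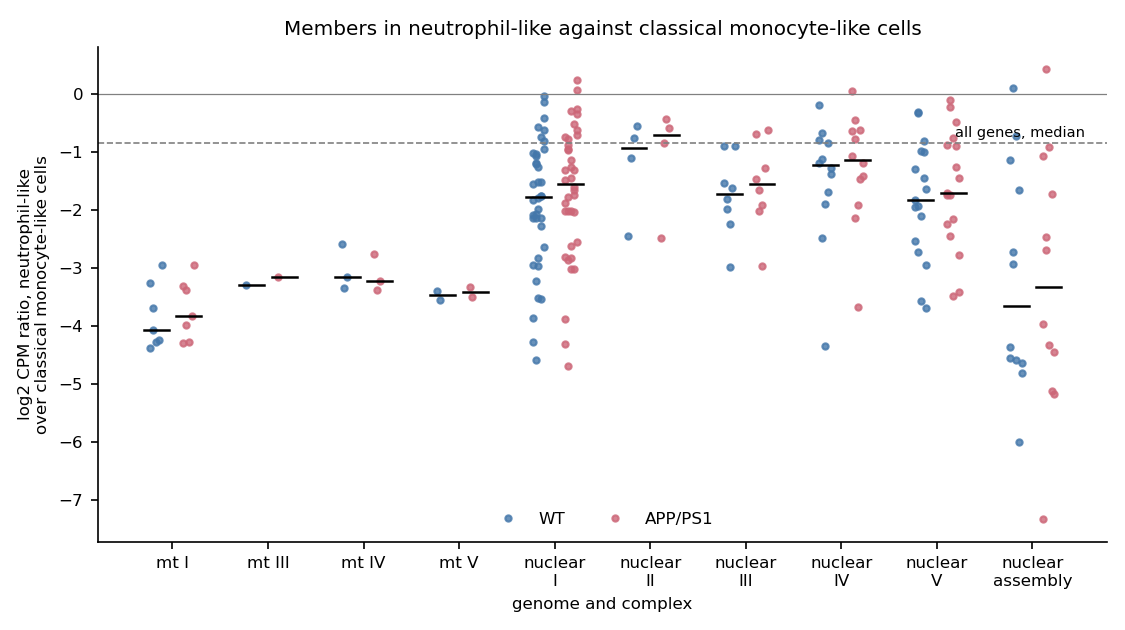
log2 CPM ratio of neutrophil-like over classical monocyte-like cells for each of the 104 members, grouped by genome and complex, in WT and APP/PS1, with group medians as black bars and the median of all genes as a dashed line. Mitochondrial members lie between -4.38 and -2.59, while nuclear subunits of complexes I to V spread from near 0 to below -4.

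Complex I, which oxidises NADH, had 7 mitochondrial members with log2 ratios (mean of both libraries) from -4.34 for mt-Nd1 to -2.94 for mt-Nd4. mt-Nd1 had 64.5 CPM in WT and 57.7 in APP/PS1 neutrophil-like cells, against 1338 and 1136 in classical monocyte-like cells. mt-Nd2 had 70.0 and 71.4 CPM against 1174 and 1123. mt-Nd4 had 209 and 187 CPM against 1602 and 1440. mt-Nd4 was thus above mt-Nd1 and mt-Nd2 in both classes, by a wider margin in neutrophil-like cells.

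The remaining complex I genes of mitochondrial DNA were mt-Nd3 at -4.27, mt-Nd4l at -4.04, mt-Nd6 at -3.54 and mt-Nd5 at -3.28. mt-Nd6, the only one read from the other strand, had 52 UMIs in all neutrophil-like cells. mt-Nd4l overlaps mt-Nd4, and mt-Atp8 overlaps mt-Atp6, so reads in the overlaps cannot be assigned with certainty.

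mt-Cytb, the mitochondrial subunit of complex III, had 219 CPM in WT and 202 in APP/PS1 neutrophil-like cells against 2141 and 1795, a log2 ratio of -3.22. The catalytic core of complex IV, cytochrome c oxidase, had 805 and 629 CPM of mt-Co1 against 4835 and 4256, 564 and 462 of mt-Co2 against 5700 and 4804, and 616 and 500 of mt-Co3 against 5496 and 4662. mt-Co1 had the smallest gap of all 13 genes, at -2.67, with -3.36 for mt-Co2 and -3.19 for mt-Co3. In complex V, mt-Atp6 of the proton channel had 558 and 497 CPM against 6516 and 5625 (-3.52), and mt-Atp8 5.51 and 5.66 against 58.1 and 56.7 (-3.36).

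The make-up of the mitochondrial UMIs therefore differed between classes. mt-Co1 took 25.4% of mitochondrial UMIs in WT and 23.6% in APP/PS1 neutrophil-like cells, and 28.2% and 24.8% in immature ones. It took 16.3% and 16.6% in classical monocyte-like, 12.9% in NK cell-like and 14.0% and 13.3% in B cell-like cells. Its share in erythroid cell-like cells was 25.5% and 25.9%, close to that of the neutrophil-like cells. mt-Nd1 and mt-Nd2 went the other way, with 2.03% and 2.21% of mitochondrial UMIs in WT neutrophil-like cells against 4.51% and 3.96% in WT classical monocyte-like cells.

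**Figure D3:**
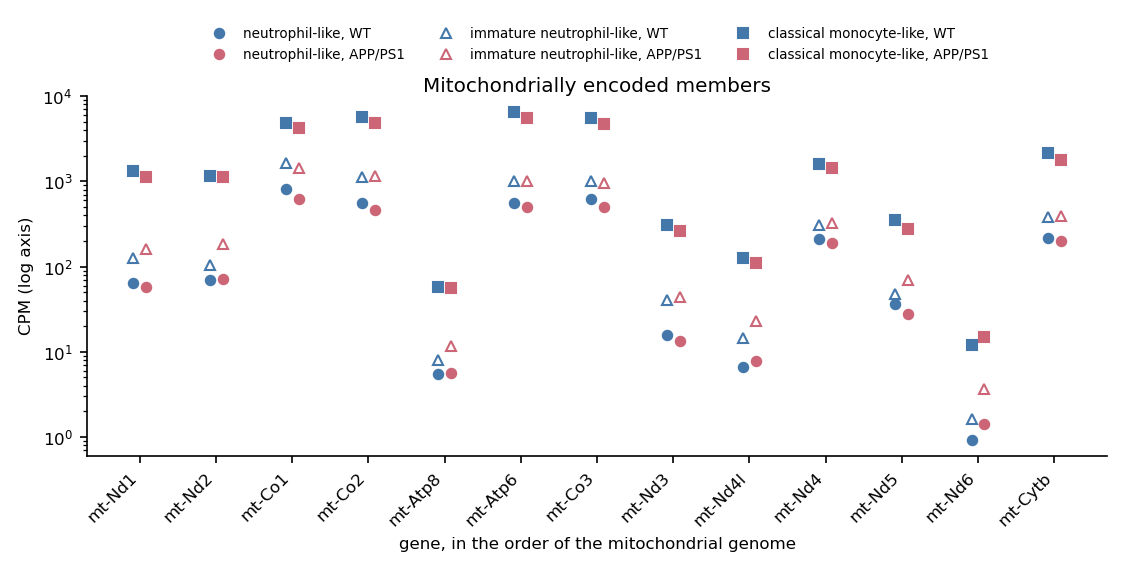
CPM (log axis) of the 13 mitochondrially encoded genes, in the order of the mitochondrial genome, in neutrophil-like (circles), immature neutrophil-like (open triangles) and classical monocyte-like cells (squares) of the WT and APP/PS1 libraries. For each gene the neutrophil-like points are lowest and the monocyte-like points highest, and the gap is smallest for mt-Co1.

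Nuclear subunits of complex I fell on both sides of the median of all genes. Summed over 38 genes, complex I had 2434 CPM in WT and 2677 in APP/PS1 neutrophil-like cells and was 2.36-fold lower than in classical monocyte-like cells (mean of both libraries). Its highest members in neutrophil-like cells were Ndufb9, an accessory subunit of the membrane arm, with 276 and 295 CPM against 281 and 249, and Ndufa13, also known as Grim19, with 205 and 237 CPM against 302 and 292. Ndufb9 and Ndufa7, at log2 ratios of 0.11 and -0.038, were thus close to the monocyte level. Counting ends of transcripts gives 1 UMI per molecule, so no length correction was made between genes.

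Other complex I subunits were almost missing. Ndufa5 had 2.39 CPM in WT and 2.18 in APP/PS1 neutrophil-like cells against 57.7 and 56.1 in classical monocyte-like cells, a log2 ratio of -4.64. Ndufc2 had 8.26 and 7.72 CPM against 161 and 153 (-4.29), and Ndufa11, which is needed to assemble the membrane arm, 9.98 and 9.10 against 145 and 134 (-3.87). Core subunits that carry flavin or iron-sulphur clusters lay between, with Ndufs1 at -0.91, Ndufv2 at -1.92 and Ndufv1 at -2.59. Subunits of 1 enzyme thus ran from the monocyte level to log2 ratios below -4.

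For Ndufa5, the neutrophil-like cells held a share of the monocyte level no greater than that of the classical monocyte markers, in both libraries. This held for 9 members in WT (Sdhaf4, Ndufaf5, Ndufaf6, Ndufaf4, Sdhaf3, Ndufa5, Cox6b2, Ndufaf2 and mt-Nd1) and for 4 in APP/PS1 (Ndufaf6, Ndufaf4, Sdhaf3 and Ndufa5). Whether RNA from monocytes set the level of these genes was not tested.

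Complex II, succinate dehydrogenase, which also belongs to the citric acid cycle, was 1.89-fold lower in neutrophil-like cells, with 157 CPM in WT and 171 in APP/PS1. The flavin-carrying Sdha had 53.5 and 54.0 CPM against 78.0 and 81.1 (-0.57), and the iron-sulphur subunit Sdhb 51.2 and 57.4 against 110 and 103 (-0.97). The membrane anchor Sdhd was at -0.59 and the other anchor, Sdhc, at -2.47. Sdha, Sdhb and Sdhd were thus near the median of all genes and Sdhc was well below it.

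Nuclear subunits of complex III summed to 719 and 759 CPM and were 2.71-fold lower. The hinge protein Uqcrh had 242 and 262 CPM against 701 and 721 (-1.50), and Uqcrq 176 and 178 against 326 and 287 (-0.79). The farthest below was Uqcrb, at 27.7 and 28.2 CPM against 219 in both libraries (-2.97).

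Complex IV had the smallest gap of the nuclear groups besides complex II. Its 12 nuclear members summed to 2714 CPM in WT and 2889 in APP/PS1 and were 1.94-fold lower. Cox8a, the liver-type form of a small subunit, had 793 and 852 CPM in neutrophil-like cells against 909 and 820, and was the highest nuclear member there. Cox4i1, a regulatory subunit, had 464 and 481 CPM against 1126 and 1102 (-1.24). The mitochondrial subunits of the same enzyme were 8.35-fold lower, so the gap differed between the genomes within complex IV.

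Complex V, the ATP synthase, summed to 2302 and 2479 CPM over 17 nuclear members and was 2.43-fold lower. Atp5l, a subunit of the membrane part, had 565 and 581 CPM against 699 and 675 (-0.26), and Atp5e, the epsilon subunit, 365 and 395 against 719 and 670 (-0.87). The catalytic Atp5b was at -1.36 and Atp5a1, its partner in the catalytic head, at -2.38. Atp5g1, Atp5g2 and Atp5g3, which encode the same mature subunit c of the rotor, were all far below, at -3.55, -3.52 and -2.58.

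The 12 assembly factors summed to 95.2 and 95.7 CPM, 2.74-fold below the classical monocyte-like cells. They held both ends of the range. Sdhaf2, which attaches flavin to Sdha, was the highest of the 91 nuclear members at 0.27, with 26.4 and 31.3 CPM against 24.4 and 23.4. Sdhaf3 (6 UMIs in neutrophil-like cells), Ndufaf6 (7), Ndufaf4 (18), Ndufaf2 (14) and Ndufaf5 (9) had log2 ratios from -5.94 to -4.46, with too few UMIs to order them.

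Promoters of members from both ends are shown because these genes answer to shared transcription factors in many tissues. A whole chromosome was left out of the promoter search, for members and for all genes compared. Promoters, 250 bases before to 50 after a start in RefSeq (GRCm38.p6), were searched for 76 of 91 nuclear members. Searched on both strands, the NRF1 motif (GCGCA, any base, then GCGC) was present in 21 of them (27.6%), against 5.19% of 27025 genes, and the ETS motif CCGGAAG in 22 (28.9%) against 9.93%. The YY1 motif AAGATGGC was present in 10 (13.2%) against 3.19%, the Sp1 motif GGGCGG in 37 (48.7%) against 38.2%, and the ERR motif TCAAGGTCA in 2 (2.63%) against 0.466%. In the promoters below, each read 5′ to 3′ on the strand of its gene, capitals mark a match to the NRF1 or the ETS motif, the latter in its reverse complement. Ndufc2 (chr7:97399753-97400052, plus strand), Ndufa11 (chr17:56717512-56717811, plus strand) and Atp5g1 (chr11:96075582-96075881, minus strand) were far below the monocyte level. Sdhaf2 (chr19:10525160-10525459, minus strand), Ndufa7 (chr17:33824322-33824621, plus strand) and Cox8a (chr19:7217567-7217866, minus strand) were near it.
Ndufc2: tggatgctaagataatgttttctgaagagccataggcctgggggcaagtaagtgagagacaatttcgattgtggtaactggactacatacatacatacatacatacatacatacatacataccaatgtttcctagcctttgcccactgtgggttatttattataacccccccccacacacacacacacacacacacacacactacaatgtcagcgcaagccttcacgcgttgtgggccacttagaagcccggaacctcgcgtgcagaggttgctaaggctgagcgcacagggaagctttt
Ndufa11: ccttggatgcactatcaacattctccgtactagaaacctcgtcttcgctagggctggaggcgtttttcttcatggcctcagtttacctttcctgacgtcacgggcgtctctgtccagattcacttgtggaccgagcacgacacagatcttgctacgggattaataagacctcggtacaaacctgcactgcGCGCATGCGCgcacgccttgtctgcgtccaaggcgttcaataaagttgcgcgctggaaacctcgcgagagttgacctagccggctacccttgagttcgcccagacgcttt
Atp5g1: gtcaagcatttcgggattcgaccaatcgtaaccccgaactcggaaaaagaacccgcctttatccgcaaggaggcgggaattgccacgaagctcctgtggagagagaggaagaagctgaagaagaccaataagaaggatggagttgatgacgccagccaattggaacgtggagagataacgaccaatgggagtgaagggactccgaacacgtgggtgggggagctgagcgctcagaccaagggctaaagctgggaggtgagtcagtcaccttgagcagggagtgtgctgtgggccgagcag
Sdhaf2: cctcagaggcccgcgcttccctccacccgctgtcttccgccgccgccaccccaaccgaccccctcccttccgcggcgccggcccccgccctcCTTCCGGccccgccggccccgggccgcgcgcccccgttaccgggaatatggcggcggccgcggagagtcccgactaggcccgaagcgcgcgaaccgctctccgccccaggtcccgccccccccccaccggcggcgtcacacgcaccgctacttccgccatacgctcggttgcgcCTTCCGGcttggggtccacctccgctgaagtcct
Ndufa7: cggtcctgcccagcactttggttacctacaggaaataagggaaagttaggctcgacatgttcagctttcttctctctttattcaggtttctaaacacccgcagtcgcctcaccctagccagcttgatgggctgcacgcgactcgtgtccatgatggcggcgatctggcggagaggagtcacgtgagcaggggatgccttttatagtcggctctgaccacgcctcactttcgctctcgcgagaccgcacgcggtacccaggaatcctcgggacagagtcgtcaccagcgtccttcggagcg
Cox8a: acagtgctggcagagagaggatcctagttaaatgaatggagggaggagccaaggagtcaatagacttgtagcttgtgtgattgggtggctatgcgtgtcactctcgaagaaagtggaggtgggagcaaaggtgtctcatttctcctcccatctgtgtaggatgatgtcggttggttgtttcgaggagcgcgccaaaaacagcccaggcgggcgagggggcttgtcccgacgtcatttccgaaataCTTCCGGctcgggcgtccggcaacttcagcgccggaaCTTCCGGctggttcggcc
Matches and their absence occurred at both ends, since Ndufc2, Atp5g1 and Ndufa7 held neither motif, and they describe only the letters in these windows.

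Against nonclassical monocyte-like cells, the patrolling class, the log2 ratio was below -1 in both libraries for 13 of 13 mitochondrial and 47 of 89 nuclear members, where 44.6% of all genes were. The medians were -3.13 and -1.26, with -0.88 for all genes.

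Against immature neutrophil-like cells, the gap lay mainly in mitochondrial genes. mt-Co1, mt-Co2, mt-Nd3 and mt-Nd4l of 12 mitochondrial members and 8 of 83 nuclear members were below -1 in both libraries, where 7.06% of all genes were, and none was above 1, where 13.9% were. mt-Co1 had 805 CPM in WT and 629 in APP/PS1 neutrophil-like cells against 1641 and 1423 in immature ones. The 8 nuclear members were Ndufa11, Ndufv3, Ndufc2, Ndufc1, Ndufs4, Uqcrb, Atp5o and Atp5g3, of which Ndufa11 had 9.98 and 9.10 CPM against 46.7 and 48.5. The median log2 ratio was -0.95 for mitochondrial and -0.14 for nuclear members, with 0.25 for all genes.

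Isoforms showed which forms these cells use. In neutrophil-like cells Cox4i1 had 8940 UMIs in WT and 11459 in APP/PS1, and the lung form Cox4i2 had 1 and 0. Cox6a1 had 1891 and 2712 UMIs, and the muscle form Cox6a2 had 2 and 1. Cox8a had 15269 and 20309 UMIs, with 0 of Cox8b and Cox8c. Of the Cox7a family, Cox7a2 took 53.9% (52.8 to 55.1) in WT and 54.8% (53.8 to 55.8) in APP/PS1 neutrophil-like cells, and 41.5% and 38.2% in classical monocyte-like cells, with the remainder almost all Cox7a2l, a supercomplex factor. Among the genes of subunit c, Atp5g3 took 35.8% and 34.3% in neutrophil-like against 23.2% and 20.5% in classical monocyte-like cells.

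Cox6b2, known as a testis form, took a large share of its family in erythroid cell-like cells, where Cox6b1 was scarce. It took 44.4% (32.7 to 56.6, 32 UMIs) of Cox6b UMIs in WT and 54.2% (39.2 to 68.6, 26 UMIs) in APP/PS1 erythroid cell-like cells. In classical monocyte-like cells it took 3.15% and 3.27%, and in neutrophil-like cells 0.288% and 0.408%. By level, Cox6b2 was not highest in erythroid cell-like cells, with 8.60 and 10.9 CPM against 14.8 and 14.4 in classical monocyte-like cells.

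APP/PS1 neutrophil-like cells had a lower mitochondrial and a slightly higher nuclear share than WT ones. The log2 ratio of APP/PS1 over WT was -0.25 (-0.27 to -0.24) for the mitochondrial sum and 0.11 (0.10 to 0.12) for the nuclear sum. With 1 library per genotype, neither can be set against a spread between animals. The mitochondrial ratio was -0.14 in thinned cells. The nuclear ratio was 0.046 under TMM, 0.056 without S100a8, S100a9, haemoglobin and mitochondrial genes in the total, and 0.058 with clusters weighted equally. In the same cells the 7 neutrophil markers summed to 177050 CPM in WT and 145058 in APP/PS1, the 5 immature neutrophil markers to 73.2 and 149, and the 5 erythroid markers to 1502 and 1043, and their part in these ratios was not tested. The mitochondrial share was 0.340% in WT and 0.323% in APP/PS1 at 1000 to 2000 UMIs per cell. In WT it stayed between 0.321% and 0.336% from 2000 to 10000 UMIs and was 0.264% in the 70 cells above 20000. In APP/PS1 it was 0.280% at 2000 to 3000 UMIs, 0.299% at 3000 to 4000 and 0.250% at 4000 to 6000. At 6000 to 10000 UMIs the APP/PS1 share was 0.257%. At 10000 to 20000 UMIs the share was 0.299% in WT and 0.230% in APP/PS1, and in 89 APP/PS1 cells above 20000 it was 0.187%.

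The lower mitochondrial sum was not particular to neutrophils. It was below WT in 11 of 11 classes, from -0.34 in erythroid cell-like to -0.019 in immature neutrophil-like cells, and the interval of the latter reached 0.038. Classical monocyte-like cells were at -0.21, nonclassical at -0.14, T cell-like at -0.19, NK cell-like at -0.084 and B cell-like cells at -0.066. Under other settings the sign turned in erythroid cell-like cells in 2 cases and in immature ones in 1, as the closing section gives. Parts of the mitochondrial sum went different ways in immature neutrophil-like cells. Complex I was at 0.33 (0.16 to 0.50), III at 0.022, IV at -0.10 (-0.17 to -0.029) and V at 0.0094. The nuclear sum was above WT in 6 of 11 classes, from -0.078 to 0.11, and the neutrophil-like cells had the highest value.

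Among mitochondrial genes in neutrophil-like cells, the ratio was lowest for mt-Nd5, at -0.39 (-0.54 to -0.23), and for the 3 complex IV genes, at -0.36 for mt-Co1, -0.30 for mt-Co3 and -0.29 for mt-Co2. It was -0.25 for mt-Nd3, -0.17 for mt-Atp6, -0.16 for mt-Nd1 and mt-Nd4 and -0.12 for mt-Cytb. mt-Nd2 was at 0.029, mt-Atp8 at 0.040 and mt-Nd4l at 0.25, each with an interval that spans 0. As sums, complex IV was at -0.32 (-0.34 to -0.30) and complex I at -0.14 (-0.18 to -0.093), and these intervals do not overlap. In classical monocyte-like cells the same sums were at -0.22 and -0.17.

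No well-counted member passed a log2 ratio of 0.5 in either direction in neutrophil-like cells. With at least 100 UMIs in these cells there were 82 nuclear and 12 mitochondrial members, and 0 of them were higher and 0 lower by over 0.5, where 4.97% and 3.45% of 7950 genes were. With the filter of 100 UMIs over all cells, Sdhaf4, Ndufaf6 and Cox6b2 of 91 nuclear members and mt-Nd6 of 13 mitochondrial members were higher, where 12.4% of genes were, and Sdhaf3 was lower, where 9.95% were. These had 6 to 58 UMIs in neutrophil-like cells, and every interval spanned 0. Sdhaf3, with 5 UMIs in WT and 1 in APP/PS1, was at -2.63 (-8.19 to 0.53) and Ndufaf6 at 1.01 (-1.60 to 4.41).

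Most nuclear members, like most genes, lay above 0. Of the 82, 70 lay above 0, where 62.6% of 7950 genes did, with a median of 0.12 where all genes had 0.066. Under TMM, which lowers each ratio by the same amount, 57 of the 82 lay above 0. The highest were Ndufa9 at 0.36 (-0.071 to 0.79), with 3.90 CPM in WT and 4.99 in APP/PS1, and Ndufb8 at 0.35 (0.25 to 0.45), with 67.8 and 86.2 CPM. Ndufb5, Ndufb4 and Ndufc1, all of complex I, followed at 0.34, 0.32 and 0.31. The lowest nuclear members with 100 UMIs were the assembly factors Ndufaf7 at -0.21 (-0.40 to -0.032) and Ndufaf3 at -0.17 (-0.39 to 0.042), and Sdhc at -0.14 (-0.42 to 0.15).

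By complex the nuclear sums stood at 0.14 (0.12 to 0.15) for I, 0.12 for II, 0.079 for III, 0.090 for IV, 0.11 for V and 0.0063 (-0.083 to 0.096) for the assembly factors. All 5 complexes thus lay above 0, and the assembly factors did not differ from 0 beyond counting error. In classical monocyte-like cells the sums of complexes I to V lay from -0.076 to -0.053. For 16 of 91 nuclear members, among them Ndufb8, Ndufb9, Cox8a and Atp5l, the interval lay above 0 in neutrophil-like and below 0 in classical monocyte-like cells, where 2.37% of 12173 genes had such intervals, and for 0 of 91 the other way round, where 0.337% did. Whether an interval reaches 0 depends on a gene's UMIs, and the 12173 genes were not matched to the members for UMIs. The medians of all genes also lay on opposite sides of 0, at 0.065 in neutrophil-like and -0.049 in classical monocyte-like cells.

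**Figure D4:**
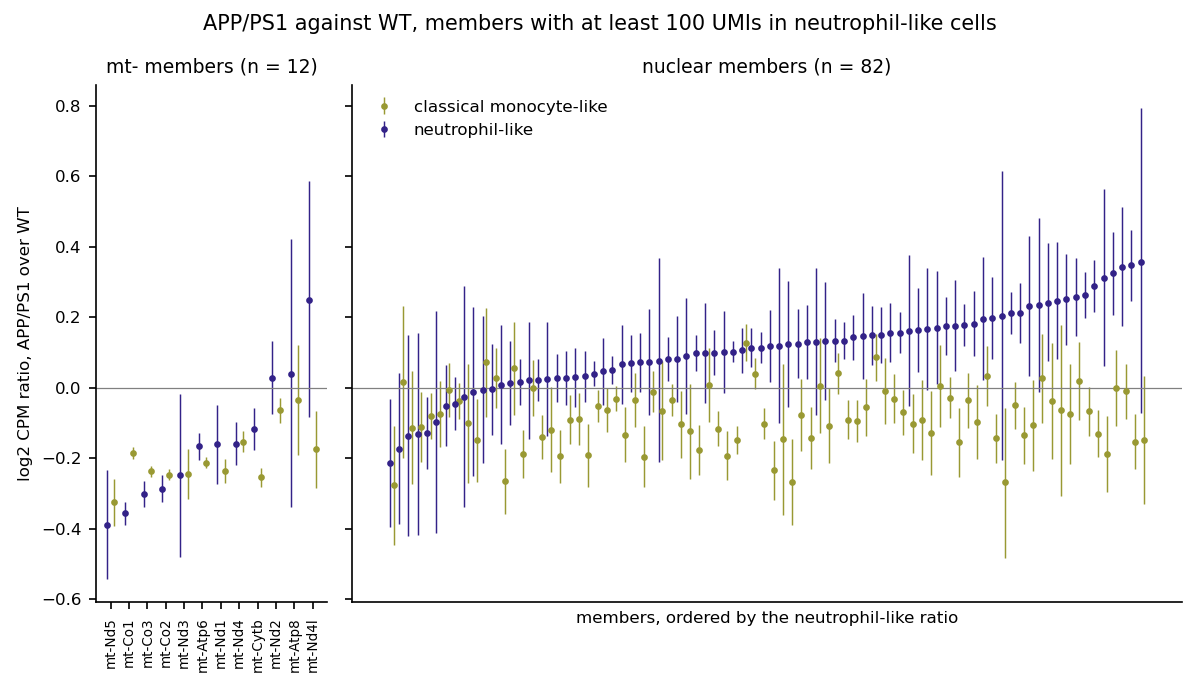
log2 CPM ratio of APP/PS1 over WT with exact 95% intervals (counting error only) for 12 mitochondrial and 82 nuclear members with at least 100 UMIs in neutrophil-like cells, ordered by the ratio in neutrophil-like cells, with classical monocyte-like cells beside. In neutrophil-like cells 9 of the 12 mitochondrial members lie below 0 and 70 of the 82 nuclear members above it, while most monocyte-like points lie below 0 in both panels.

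Classical monocyte-like cells had 0 of 91 nuclear members past 0.5 in either direction, where 1.76% of genes were higher and 3.37% lower, and 20 of 91 above 0. In nonclassical monocyte-like cells Sdhaf4 and Ndufaf1, of 88, were higher (1.9% of all genes) and 0 lower (3.15%). In T cell-like cells Sdhaf4, Ndufaf4 and Sdhaf2, of 84, were higher (4.23%) and 0 lower (5.39%). Sdhaf4, an assembly factor of complex II, thus came up in both, with 12.6 CPM in WT and 19.8 in APP/PS1 nonclassical monocyte-like cells and 25.4 and 41.2 in T cell-like cells. It was at 22.4 and 24.4 CPM in classical monocyte-like cells and at 1.09 and 1.55 in neutrophil-like cells.

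Within the neutrophil-like cells, mitochondrial shares of the 6 clusters ran from 0.291% to 0.349% in WT and from 0.214% to 0.323% in APP/PS1. The mitochondrial sum was lower in APP/PS1 in 5 of 6 clusters, from -0.44 in cluster 15, led by Hdc and Acod1, to -0.18 in cluster 3, led by Il1b and Ptgs2. The exception was cluster 14, led by Retnlg and S100a9, at 0.071. Cluster 4, led by the interferon-response genes Ifit3 and Rsad2, went from 0.349% in the WT library to 0.284% in the APP/PS1 library.

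Nuclear shares also varied by cluster. Cluster 5, led by Csf1, Clec4n and Ccrl2, reached 1.01% (WT) and 1.04% (APP/PS1), followed by cluster 3 with 0.957% and 0.956%. Clusters 0, 14 and 15 had 0.796% to 0.832% in WT and 0.831% to 0.853% in APP/PS1. The genotypes filled these clusters unequally, with 2055 WT and 825 APP/PS1 cells in cluster 0 and 676 and 1524 in cluster 5. The libraries were clustered together without integration, so cluster composition and differences between libraries cannot be told apart. With the 6 clusters weighted equally the nuclear ratio was 0.058 and the mitochondrial ratio -0.23.

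**Figure D5:**
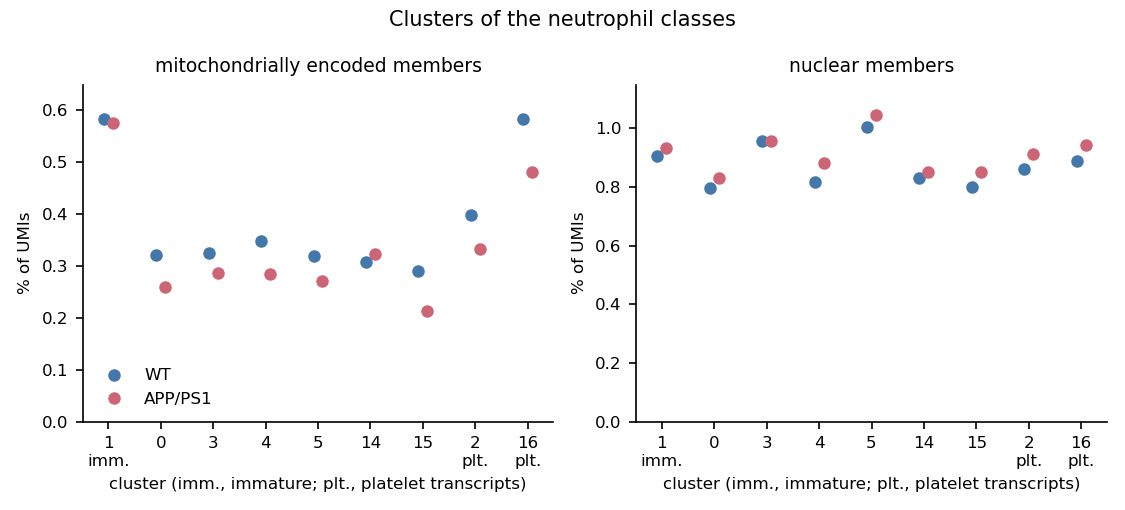
Share of UMIs (%) taken by mitochondrially encoded (left) and nuclear members (right) in the clusters of the immature, neutrophil-like and platelet-carrying classes in WT and APP/PS1. Mitochondrial shares are highest in cluster 1 (immature) and cluster 16 (platelet transcripts), and nuclear shares in cluster 5.

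Genes around the respiratory chain were described by lists chosen for this purpose. In neutrophil-like cells, counting genes with at least 100 UMIs there, 3 of 59 genes of the mitochondrial ribosome, which translates the mitochondrial members, were higher in APP/PS1 by over 0.5 and 0 lower, near the 4.97% and 3.45% of all genes, with a median of 0.16 where all genes had 0.066. Mrpl44 was at 1.18 (0.56 to 1.83), with 1.56 CPM in WT and 3.52 in APP/PS1, and Mrpl58 at 0.54 (-0.014 to 1.10), while Mrps9 and Mrps30 were lowest at -0.27 and -0.25. Of 7 genes that maintain or transcribe mitochondrial DNA, Mterf3 was higher at 0.60 (0.19 to 1.02), followed by Ssbp1 at 0.28, with Polg2 at -0.23 and Mterf4 at -0.13 lowest.

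In the other 8 lists 0 of 5 to 12 genes each passed 0.5 in either direction, where 4.97% of all genes were higher and 3.45% lower, and the all-gene median was 0.066. The medians were 0.13 for 10 genes of the citric acid cycle (Sucla2 0.30 and Ogdh 0.28, Dlst -0.22 and Cs -0.034) and 0.17 for 7 around pyruvate dehydrogenase (Dlat 0.41 and Mpc1 0.25, Pdk3 -0.37 and Pdk1 -0.25). They were 0.10 for 12 electron carriers and exchangers (Etfa 0.37 and Etfb 0.32, Ucp2 -0.079 and Gpd2 -0.067) and 0.15 for 10 complex IV assembly factors (Cox20 0.39 and Coa6 0.31, Surf1 -0.076 and Cox17 0.035). For 6 complex I assembly factors the median was -0.13 (Tmem126b 0.17 and Ndufaf8 -0.0053, Ndufaf7 -0.21 and Ndufaf3 -0.17). For 7 genes of mitochondrial RNA processing it was 0.039 (Hsd17b10 0.33 and Grsf1 0.12, Tbrg4 -0.30 and Fastk -0.20), for 5 regulators of biogenesis 0.034 (Gabpa 0.31 and Yy1 0.10, Esrra 0.028 and Nrf1 0.033) and for 9 mitophagy genes -0.011 (Fundc1 0.22 and Bnip3 0.18, Bcl2l13 -0.27 and Pink1 -0.17).

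Against classical monocyte-like cells, where the median of all genes was -0.84, the median log2 ratio was -2.05 for the mitochondrial ribosome, -1.69 for mitochondrial RNA processing, -1.62 for electron carriers, -1.42 for the citric acid cycle, -1.36 for pyruvate dehydrogenase and -1.12 for complex I assembly. It was -0.80 for mitochondrial DNA maintenance, -0.73 for complex IV assembly, -0.020 for regulators of biogenesis and 0.13 for mitophagy genes. These list medians cover only genes with at least 100 UMIs in neutrophil-like cells, a filter that drops genes low there. Of mitochondrial DNA maintenance it left out, for example, Twnk at -1.08 and Tfam at -3.59. The median of all genes covers genes with at least 100 UMIs in the 2 classes together, so the list medians cannot be placed against it. Cycs, cytochrome c, had 25.8 CPM in WT and 27.7 in APP/PS1 neutrophil-like cells against 203 and 223. In both libraries 5 genes of these lists were higher by over 1, Gpd2, the mitochondrial end of the glycerol phosphate shuttle, with 65.3 and 62.3 CPM against 25.2 and 23.8, Cox17, a copper chaperone of complex IV, with 371 and 380 against 149 and 134, the mitophagy receptors Bnip3, with 40.3 and 45.6 against 13.8 and 13.2, and Optn, with 17.9 and 16.99 against 1.202 and 1.51, and Gabpb1, a partner of the ETS factor Gabpa, with 24.6 and 25.2 against 7.41 and 9.07. The lists counted only genes with at least 100 UMIs in neutrophil-like cells. By list, 1 of 12 electron carriers, 1 of 10 complex IV assembly factors and 2 of 9 mitophagy genes were among these 5. So was 1 of 5 regulators of biogenesis, and each other list had 0. Among the 10012 genes with at least 100 UMIs in the 2 classes together, 12.9% were higher by over 1 in both libraries. That share rests on a wider filter, so those of the lists cannot be set against it.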

How the data were processed

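Both 10x libraries of enriched mouse blood neutrophils were used, 1 per genotype. The authors deposited raw UMI counts as a matrix of genes by cells for each library. The submitters' processing notes name Cell Ranger 5.0.0 and mm10, and 0 columns of the matrices belonged to other samples. Cells with at least 1000 UMIs were kept. scanpy 1.11.5 clustered them without the members (2000 variable genes, 15 components, 20 neighbours, Leiden resolution 1). The libraries were clustered together and not integrated, whereas the study integrated its samples. Clusters were named by marker lists, with a naming rule written after the clusters had been seen. Scrublet's own threshold called 0 cells in APP/PS1 and 1571 in WT, so the 8% highest scores per library marked likely doublets: clusters with over 30% of them stayed unnamed, and single cells stayed in. UMIs were summed per class and library and divided by all UMIs of those cells (CPM). Intervals of CPM and of shares of UMIs are exact Poisson, those of isoform shares exact binomial and those of ratios exact conditional ones (scipy 1.17.1). No test was run. Ratios past 0.5 log2 between genotypes and past 1 between classes were counted. Intervals were tried on counts simulated with the Poisson error they assume, which cannot show how they hold for spread between cells or animals.

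Named were all mitochondrial genes, the 2 highest members per complex, the 5 highest and 5 lowest ratios in each comparison, isoform families and the ends of each list; other members were named after their values had been seen. Members, lists and tests were chosen with earlier results of these data known. The symbol decided a gene's complex, so Ndufa4 stood with complex I, and Ndufb1-ps is annotated as noncoding. Alternatives covered cell filters, doublets, denominators, TMM (edgeR 4.0.16), weighting and naming.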

Additional observations from a re-analysis of the deposited data

Results flagged for a closer look

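The log2 ratio of APP/PS1 over WT for the sum of the nuclear members was 0.11 in neutrophil-like cells and -0.071 in classical monocyte-like cells. The difference of 0.18 stood out because the cell classes lay on opposite sides of 0. The medians of all genes did so too, at 0.065 and -0.049. The difference was not tested, since each genotype was 1 library.

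Clusters that stayed unnamed entered no comparison. Only sums in them that were higher in APP/PS1 than in WT, the control, by more than counting error were flagged, and there were 3. In cluster 11, led by the epithelial genes Psca and Krt13, with 13 WT and 15 APP/PS1 cells, the nuclear share was 0.751% and 0.995%, a log2 ratio of 0.41. In cluster 17, led by the platelet genes Clec1b, Ppbp and Pf4, with 17 and 14 cells, the mitochondrial share was 1.31% and 1.72%, a log2 ratio of 0.39. In cluster 26, led by erythroid genes and with many high doublet scores, with 128 and 107 cells, the nuclear share was 0.387% and 0.436%, a log2 ratio of 0.17. Falls were not flagged. The mitochondrial sum was lower in APP/PS1 beyond counting error in clusters 8 (-0.19), 10 (-0.078), 24 (-0.12), 25 (-0.22), 26 (-0.50) and 27 (-0.30). The nuclear sum was so in clusters 8 (-0.058) and 10 (-0.096). None of these differences was tested.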

How the results depend on the processing

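No paired analysis was possible because each genotype had 1 library, whose replicate number came only from accession order, and leaving out a library would leave a genotype empty. Pooling of 3 mice hides the spread between animals, depth limits members with few UMIs in neutrophil-like cells, and RNA from other cells was not subtracted.

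The direction of the 4 sums stayed the same under each alternative. As reported, the log2 ratios of APP/PS1 over WT were -0.25 (mitochondrial) and 0.11 (nuclear), those of neutrophil-like over classical monocyte-like cells -3.24 and -1.18, and 3 nuclear members were higher and 1 lower in APP/PS1. Removing likely doublets or shared barcodes, or requiring 500 UMIs per gene, moved none of these beyond its interval or, for counts, by over 1.5 times. Between genotypes, the mitochondrial ratio was -0.30 with cells of at most 10% mitochondrial UMIs, -0.30 without S100a8, S100a9, haemoglobin and mitochondrial genes in the total, -0.31 under TMM, -0.16 as a mean over cells, -0.14 in thinned cells and -0.29 when members were kept for clustering. The nuclear ratio was 0.12 with at least 2000 UMIs per cell, 0.056 with the reduced total, 0.046 under TMM and 0.095 when cells were named one by one.

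Between classes, the mitochondrial and nuclear ratios were -3.22 and -1.17 with percentile limits on cells, -3.26 and -1.20 with at least 2000 UMIs, -3.28 and -1.22 without mitochondrial genes in the total, -3.06 and -0.9996 with the reduced total, -2.30 and -0.24 under TMM, -3.17 and -1.14 as a mean over cells, -3.17 and -1.13 in thinned cells, and -3.13 and -1.20 with cells named one by one. The mitochondrial ratio was -3.26 with at most 10% mitochondrial UMIs and -3.29 with members kept for clustering, and the nuclear ratio -1.17 at the coarser resolution of 0.5.

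The count of nuclear members lower in APP/PS1 was 2 as a mean over cells, at the coarser resolution, with cells named one by one and with members kept for clustering, 3 in thinned cells, and 4 with at least 1 UMI in each library. The count of higher members was 5 in thinned cells and 1 in each of the settings with cells named one by one or members kept. Chosen after seeing the data were a minimum of 100 UMIs in neutrophil-like cells, which left 0 higher and 0 lower, equal weights for clusters (-0.23 and 0.058), the 3 neutrophil classes as 1 (mitochondrial -0.17), and the number of nuclear members above 0, which went from 70 to 57 of 82 under TMM.

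Of 1962 alternative values of single members, complexes and other classes, 1623 stayed within the interval and 324 moved past it. A further 15 were counted as sign changes, all between neutrophil-like and classical monocyte-like cells under TMM, which shifts all ratios up: Cox5b 0.22, Ndufs1 0.031, Ndufa8 0.23, Atp5e 0.072, Cox6b1 0.20, Ndufb7 0.32, Sdhd 0.35, Cox7a2 0.39, Ndufaf3 0.12, Ndufs7 0.12, Ndufa12 0.061, Uqcr10 0.18, Uqcrq 0.15, Sdha 0.37 and Atp5j 0.29. Small ratios were not counted as sign changes, so 15 is not the full number. Ndufa13 at -0.43 and Ndufs5 at -0.48 lay within the TMM shift of 0.94 and were not among the 15. The fall from 70 to 57 of 82 nuclear members above 0 between genotypes was also outside this count. Mitochondrial sums of the other 10 classes were below WT in 87 of 90 alternative values. The exceptions were erythroid cell-like cells with percentile limits (0.15) and as a mean over cells (0.07), and immature neutrophil-like cells under TMM. The cause of these changes was not tested.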
